A study of Mus musculus with 6 samples.

Results

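The genes described here are 10 genes of the epithelial-to-mesenchymal transition (EMT), namely Cdh1, Epcam, Esrp1, Cdh2, Vim, Snai1, Snai2, Zeb1, Zeb2 and Twist1. They were chosen by gene symbol from the 24054 genes of each table, and all 10 are listed in every table. The choice of these genes and of the lists below was made with earlier results of these data known. Shares and medians over all genes are therefore set beside them as a description, not a test. Their RNA was measured by RNA-seq in 3 sorted populations of 1 mouse embryonic stem cell (ESC) line, with 2 replicates each and 6 samples in all. The line is a double knock-in (DKI) line, so all samples were heterozygous for a Foxa2-Venus fusion and homozygous for a Sox17-Cherry fusion. The d0 cells were ESCs sorted at day 0 as negative for both reporters. The d3F cells were sorted at day 3 as Foxa2-Venus positive and Sox17-Cherry negative, and the d5FS cells at day 5 as positive for both, after culture on gelatine with 1 ng/ml Wnt3a and 10 ng/ml Activin A.

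Epithelial cells adhere to each other through E-cadherin, the product of Cdh1, which is anchored to the actin cytoskeleton by catenins. In an EMT, transcription factors of the Snail, Zeb and Twist families repress Cdh1 and other epithelial genes, and N-cadherin (Cdh2) and the intermediate filament protein vimentin (Vim) become abundant. Such a cadherin switch is known from gastrulation, when cells leave the epiblast through the primitive streak.

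Snail and Zeb factors are known to bind the E2-box, written CACCTG or, on the other strand, CAGGTG. The 250 bases before the RefSeq start site were searched for it in the 5 members with an entry (Epcam, Vim, Snai1, Zeb2 and Twist1, build GRCm38.p6). The Epcam window held 2 matches, starting at positions -187 and -19 from the start site, and the Snai1 window held 1 match, at position -126. No match was found in the windows of Vim and Twist1 or in the 4 windows of Zeb2. By GENCODE M21 the Vim window lies wholly inside exons of Vim, and 3 of the Zeb2 windows hold 98 to 191 exonic bases of Zeb2, so these are not all upstream of transcription. Of all 32536 distinct windows of this length, 17.3% held at least 1 match. The windows of Epcam (chr17:87635729-87635978, plus strand), an epithelial gene, and of Snai1 (chr2:167537945-167538194, plus strand), itself a gene for an E2-box factor, are printed 5′ to 3′ with the matches in capitals. The window of Twist1 (chr12:33957421-33957670, plus strand) is printed as one without a match.
Epcam: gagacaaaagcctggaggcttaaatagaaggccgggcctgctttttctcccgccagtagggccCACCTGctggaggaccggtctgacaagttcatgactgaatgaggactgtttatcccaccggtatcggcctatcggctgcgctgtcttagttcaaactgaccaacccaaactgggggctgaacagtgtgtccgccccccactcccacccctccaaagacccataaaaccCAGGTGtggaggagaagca
Snai1: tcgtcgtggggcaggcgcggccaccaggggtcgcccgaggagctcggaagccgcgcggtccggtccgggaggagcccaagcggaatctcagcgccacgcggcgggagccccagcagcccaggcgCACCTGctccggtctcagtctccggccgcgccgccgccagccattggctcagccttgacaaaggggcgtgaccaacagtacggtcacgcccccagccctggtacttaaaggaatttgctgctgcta
Twist1: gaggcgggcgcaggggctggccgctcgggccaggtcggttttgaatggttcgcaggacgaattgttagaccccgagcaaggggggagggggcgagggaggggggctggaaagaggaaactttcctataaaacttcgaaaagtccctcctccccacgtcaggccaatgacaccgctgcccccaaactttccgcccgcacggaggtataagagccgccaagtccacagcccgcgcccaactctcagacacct
A Foxa-type motif, written TGTTTAC or GTAAACA, was found in none of the windows of these 5 members and in 3.17% of all windows. These are matches of letters, and binding was not measured here.

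Each sample held between 16457728.93 and 22768686.01 expected counts, and 14539 genes passed the filter on low counts. Levels are given as CPM, the counts of a gene scaled to a common library size with TMM factors, which compare samples for 1 gene. The RNA of the sorted reporter genes was read against the labels. Foxa2 was at 0.0438 and 0.307 CPM in d0, 71.1 and 47.8 CPM in d3F and 36.6 and 59.3 CPM in d5FS, as its gates say. Sox17 was at 0.745 and 0.512, 4.75 and 14.5, and 54.3 and 102 CPM, so its RNA was already higher in the Sox17-Cherry negative d3F cells than in d0 (log2 fold change 3.91 ± 0.65, SE, adjusted p = 0.0173, edgeR). The replicates differed far beyond sampling noise, with a chi-square per degree of freedom of 85.04 to 190.4. The 6 pluripotency markers summed to 1709 and 6897 CPM in the d0 replicates, against 200.8 to 956.5 CPM in the other samples. Non-polyadenylated histone RNA took 1.313 to 3.372% of the counts of replicates 1 and 2.585 to 4.974% of those of replicates 2. All values are from bulk samples, in which fewer cells of a type and less RNA per cell cannot be told apart.

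Among the epithelial members, E-cadherin RNA was abundant in all 3 populations. Cdh1 (chr8:106603351-106670246, plus strand, mm10) was at 435 and 274 CPM in d0, 373 and 218 CPM in d3F, and 477 and 466 CPM in d5FS. The d0 and d3F samples overlapped, and both d5FS samples lay above the other 4. Its log2 fold change from d0 to d3F was -0.26 with a 95% interval of -1.11 to 0.58. From d3F to d5FS it was 0.68 (-0.17 to 1.52), and from d0 to d5FS 0.41 (-0.44 to 1.26).

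Epcam (chr17:87635979-87651129, plus strand), which encodes an epithelial adhesion molecule also found on ESCs, was at 264 and 196 CPM in d0, 226 and 97.6 CPM in d3F, and 280 and 141 CPM in d5FS. The 3 populations overlapped, and in each of them replicate 2 was the lower sample, as it was for Cdh1, Esrp1 and Twist1. The log2 fold change was -0.51 (95% interval -1.59 to 0.58) from d0 to d3F and -0.13 (-1.21 to 0.95) from d0 to d5FS.

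Esrp1 (chr4:11331933-11386783, minus strand) encodes an epithelial splicing regulator. It was at 64.8 and 45.3 CPM in d0, 75.0 and 38.8 CPM in d3F, and 86.5 and 80.4 CPM in d5FS. Like Cdh1, it was highest in both d5FS samples. Per base of transcript, its level within a sample was 0.167 to 0.225 times that of Cdh1 in all 6 samples, with the lowest ratio in d0 replicate 1 and the highest in d3F replicate 1. Cdh1 and Esrp1 were the 2 of the 9 tested members with both d5FS samples above the other 4, an arrangement that 19.6% of all tested genes showed. Neither was called in any comparison.

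**Figure D1:**
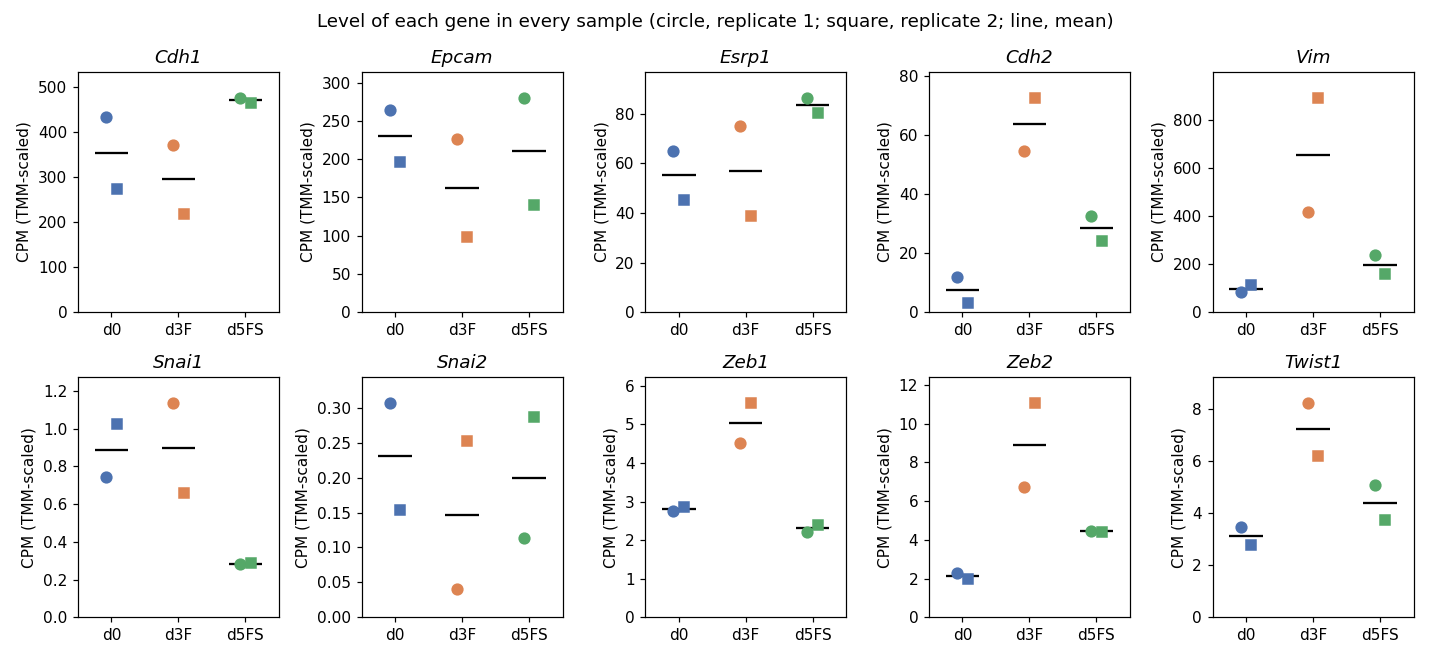
CPM after TMM scaling (vertical axis, from 0, a scale for each gene) of the 10 genes in d0, d3F and d5FS; circles are replicate 1, squares replicate 2 and lines the mean of 2. Cdh2, Vim, Zeb1, Zeb2 and Twist1 have both d3F samples on top, and Cdh1 and Esrp1 both d5FS samples.

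The mesenchymal members were highest at d3F. Cdh2 (chr18:16588877-16809246, minus strand) was at 11.97 and 3.23 CPM in d0, 54.7 and 72.8 CPM in d3F, and 32.7 and 24.3 CPM in d5FS. The 3 populations did not overlap, and d5FS lay between d0 and d3F. By fold, the d0 samples differed the most from each other, the lower one being the replicate with the higher sum of pluripotency markers, and the part of that difference in the Cdh2 result was not tested. Cdh2 rose 8.35-fold from d0 to d3F (log2 fold change 3.06 ± 0.58, SE, adjusted p = 0.0264, edgeR's quasi-likelihood test, Benjamini-Hochberg adjustment over all tested genes).

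Vim (chr2:13573927-13582826, plus strand) was at 81.9 and 114 CPM in d0, 414 and 891 CPM in d3F, and 236 and 157 CPM in d5FS. Again no population overlapped another and d5FS was intermediate. Its rise from d0 to d3F was 6.67-fold (log2 fold change 2.74 ± 0.45, SE, adjusted p = 0.0171, edgeR). The d3F replicates differed by more than those of either other population.

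Of the transcription factors, Zeb2 (chr2:44983632-45117395, minus strand) was at 2.28 and 1.997 CPM in d0, 6.74 and 11.1 CPM in d3F, and 4.48 and 4.41 CPM in d5FS. It rose 4.14-fold from d0 to d3F (log2 fold change 2.05 ± 0.45, SE, adjusted p = 0.0409, edgeR). The antisense gene Zeb2os overlaps Zeb2, and the library kit does not mark strand, so their reads cannot be told apart by strand. Zeb2os was given 1 to 12.9 counts per sample, most in d3F.

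The paralog Zeb1 (chr18:5591860-5775467, plus strand) was at 2.76 and 2.87 CPM in d0, 4.51 and 5.56 CPM in d3F, and 2.21 and 2.41 CPM in d5FS. Both d3F samples lay above and both d5FS samples below all others, but the log2 fold change of 0.84 ± 0.44 (SE) from d0 to d3F did not pass (adjusted p = 0.337, edgeR). Per base of transcript Zeb2 was at 0.532 and 0.432 times the level of Zeb1 in d0, 0.946 and 1.27 times in d3F, and 1.31 and 1.16 times in d5FS. The ratio was thus lower in both d0 samples than in the other 4. Zeb1 is overlapped on the opposite strand by Gm10125, which was given 0 counts in every sample.

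Twist1 (chr12:33957671-33959829, plus strand), a basic helix-loop-helix factor, was at 3.46 and 2.77 CPM in d0, 8.24 and 6.21 CPM in d3F, and 5.10 and 3.72 CPM in d5FS. The populations did not overlap, and d5FS was again between the others. Its log2 fold change from d0 to d3F was 1.21 ± 0.43 (SE) and did not pass (adjusted p = 0.155, edgeR).

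The Snail genes were near the limit of detection. Snai1 (chr2:167538195-167542814, plus strand) had 17 and 20 counts in d0, 28 and 13 counts in d3F, and 5 counts in each d5FS sample. Both d5FS samples lay below the other 4, as they did for Zeb1, and 18.3% of all tested genes showed this arrangement. The log2 fold change of Snai1 was 0.03 ± 0.61 (SE) from d0 to d3F and -1.64 ± 0.68 between d3F and d5FS (adjusted p = 0.253, edgeR). Snai2 (chr16:14705852-14709385, plus strand) had 1 to 7 counts per sample, did not pass the filter and was not tested, so a difference in it was not detectable at this depth.

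From d0 to d3F, the step from pluripotent cells to Foxa2-positive mesendoderm, 3 of the 9 tested members rose (Cdh2, Vim and Zeb2) and none fell. Of all tested genes, 2.80% rose and 1.90% fell by the same rule, which asks for an adjusted p below 0.05 together with a log2 fold change beyond 1 in either direction. The median log2 fold change of the 9 members was 0.84, against -0.0059 over all tested genes. The calls rested on single libraries: without d3F replicate 2 none of the 3 passed (log2 fold changes of 2.84, 2.08 and 1.65 for Cdh2, Vim and Zeb2), Cdh2 was also lost without d5FS replicate 2 (3.06, adjusted p = 0.0503, edgeR), Vim without d0 replicate 2 (2.999, adjusted p = 0.0507), and Zeb2 with any of the 6 libraries left out (1.65 to 2.36). The direction stayed the same each time. The Cdh2 value depended on the d0 library used, at 4.29 without d0 replicate 1 and 2.42 without d0 replicate 2, both of which passed. Zeb2 also failed in DESeq2 when tested against a log2 fold change of 1 (adjusted p = 0.731) and in edgeR with only the groups compared (adjusted p = 0.072). None of the 3 passed edgeR's glmTreat test against a log2 fold change of 1. Its adjusted p was 0.067 for Cdh2, 0.0506 for Vim and 0.158 for Zeb2.

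**Figure D2:**
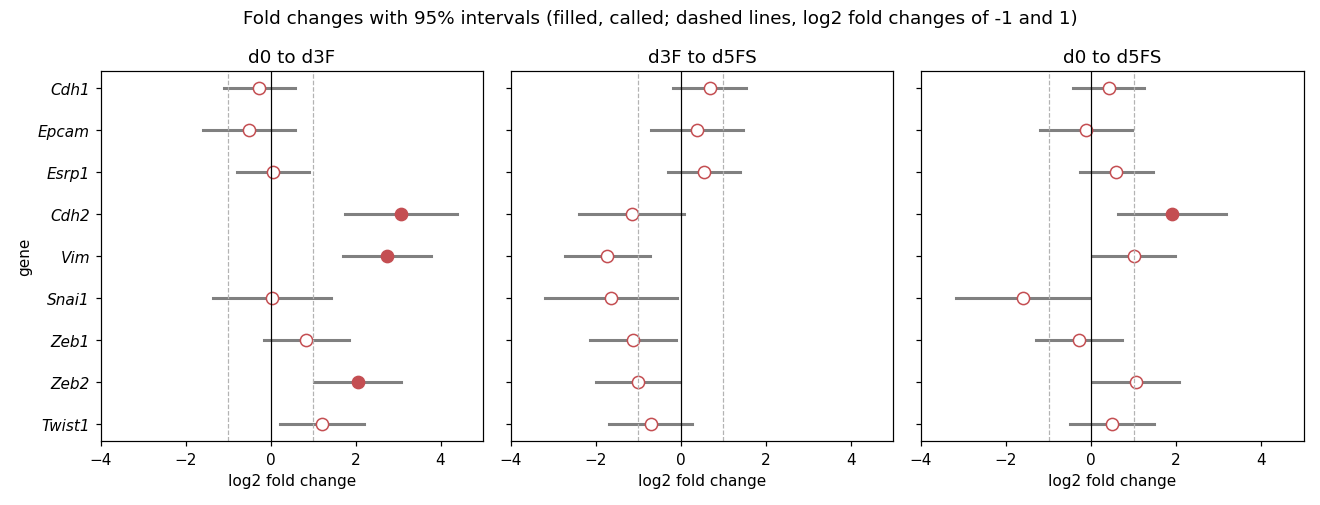
Log2 fold changes (horizontal axis) of the 9 tested genes in the 3 pairwise comparisons, with 95% intervals as bars and filled points for genes that were called; dashed lines mark -1 and 1. Cdh2, Vim and Zeb2 are filled in the left panel, no gene in the middle one, and Cdh2 alone in the right one.

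From d3F to d5FS, the step to cells positive for both reporters, no member was called by edgeR's quasi-likelihood test. In that test 4 members had an unadjusted p under 0.05. The share of all genes with such a p is not given here, so nothing can be read from this count. By the rule for calls, 1.08% of all tested genes rose and 0.461% fell in edgeR. DESeq2's Wald test called 1 member, Vim, and 1104 of the 14539 tested genes. The 6 mesenchymal members and EMT factors tested all had a log2 fold change below 0, from -1.73 for Vim to -0.71 for Twist1, and Cdh1, Epcam and Esrp1 had values of 0.68, 0.38 and 0.55. The largest, that of Vim, was -1.73 with a 95% interval of -2.73 to -0.74 (adjusted p = 0.0922, edgeR). Cdh2 was at -1.16 (-2.39 to 0.07), Snai1 at -1.64, Zeb1 at -1.12 and Zeb2 at -0.999.

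From d0 to d5FS, over the whole course, Cdh2 was the 1 member that was called. It was 3.74-fold higher in d5FS than in d0 (log2 fold change 1.90 ± 0.56, SE, adjusted p = 0.0413, edgeR), where 12.4% of all tested genes rose and 10.4% fell. Vim and Zeb2 had log2 fold changes of 1.01 ± 0.43 and 1.05 ± 0.44 (SE, adjusted p = 0.120 and 0.116, edgeR), and Snai1 one of -1.61 ± 0.68 (adjusted p = 0.119). Cdh1, Epcam, Esrp1, Zeb1 and Twist1 had log2 fold changes of 0.41, -0.13, 0.60, -0.29 and 0.50. The values of Cdh2, Vim, Zeb2 and Twist1 in both d0 samples were below those in the other 4, as for 20.2% of all tested genes. The Cdh2 call stayed only without d0 replicate 1 (3.13); leaving out d0 replicate 2 gave 1.27, d3F replicate 1 or 2 gave 1.90, and d5FS replicate 1 or 2 gave 1.67 and 2.09, with adjusted p from 0.0521 to 0.158 in edgeR.

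Set against the mean of d0 and d5FS, a comparison that shares its samples with the others, d3F stood apart in Vim (log2 difference 2.23 ± 0.35, SE, adjusted p = 0.0472, edgeR), and 0.330% of all tested genes were called higher and 0.0825% lower. Cdh2 (2.11 ± 0.44, adjusted p = 0.103, edgeR) and Zeb2 (1.52 ± 0.36, adjusted p = 0.126) did not pass, and Zeb1, Twist1 and Snai1 had differences of 0.98, 0.96 and 0.83. Cdh1, Epcam and Esrp1 had differences of -0.47, -0.44 and -0.25, and none of these 6 passed. In 5 of the 9 tested members, Cdh2, Vim, Zeb1, Zeb2 and Twist1, both d3F samples lay above the other 4, where 5.85% of all tested genes did so. The Vim call was kept without d0 replicate 1 or d3F replicate 1 (2.12 and 2.68) and lost without d0 replicate 2, d3F replicate 2, d5FS replicate 1 or d5FS replicate 2 (2.36, 1.58, 2.39 and 2.10).

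Cdh1 was called in no comparison and Cdh2 in 2 of the 3 pairwise ones, and the balance between the cadherins was read within each sample, per base of transcript, where library size cancels. There were 38.4 and 89.7 Cdh1 transcripts for each Cdh2 transcript in the d0 samples, 7.19 and 3.16 in the d3F samples, and 15.4 and 20.2 in the d5FS samples. Cdh1 exceeded Cdh2 in every sample, and the populations did not overlap. The ratio of Vim to Epcam was 0.353 and 0.662 for d0, 2.09 and 10.4 for d3F, and 0.960 and 1.27 for d5FS, so Vim exceeded Epcam in both d3F samples and in neither d0 sample. Esrp1 exceeded Zeb2 65.8- and 54.4-fold in d0, 26.2- and 8.19-fold in d3F, and 44.5- and 43.0-fold in d5FS. The ratios are given as a description and were not tested.

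**Figure D3:**
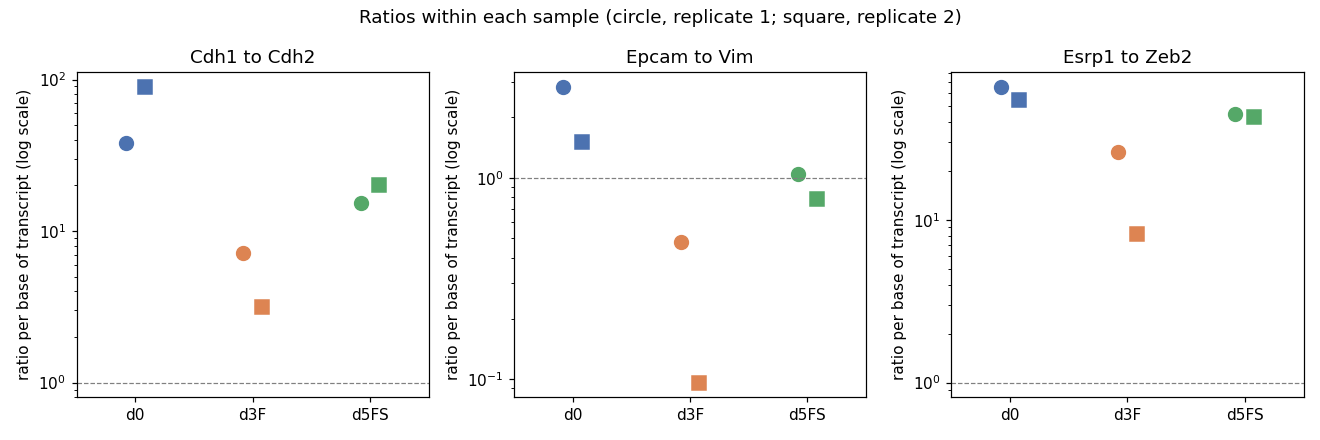
Ratios of Cdh1 to Cdh2, Epcam to Vim and Esrp1 to Zeb2 per base of transcript within each sample (vertical axis, log scale), by population; circles are replicate 1 and squares replicate 2, and the dashed line marks equal levels. All 3 ratios are lowest in the d3F samples, and only Epcam to Vim crosses 1.

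Ordered by mean TPM, which is per length, d0 had Epcam (62.8), Cdh1 (43.8) and Vim (27.2) on top, followed by Esrp1 (7.48). The ranges of the first 3 overlapped, although Epcam was above Cdh1 in both replicates. At d3F the order opened with Vim (195), which was above Epcam (51.4) and Cdh1 (40.2) in both replicates, and Cdh2 (7.44) and Esrp1 (8.78) changed order between replicates. In d5FS Vim (47.4), Epcam (45.8) and Cdh1 (42.4) overlapped and could not be ordered. Among the factors Twist1 had the highest level in all 3 populations (1.09, 2.82 and 1.21 TPM), and Snai2 the lowest (0.070, 0.040 and 0.040 TPM). Twist1 exceeded Snai1 by 2.62- to 17.5-fold, with the highest ratios in d5FS.

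Other genes of the same machinery were counted in 5 lists. Of 6 adherens junction partners none was called in either single step of the course. Ctnnb1, the gene of beta-catenin, was at 846 ± 91.3, 938 ± 2.29 and 1111 ± 92.2 CPM (SD, n = 2) in d0, d3F and d5FS, and Ctnna1, the gene of alpha-catenin, at 390 ± 62.0, 418 ± 18.2 and 433 ± 68.4 CPM. From d0 to d5FS 1 rose, Mllt4, the gene of afadin, by a log2 fold change of 1.48 ± 0.37 (SE, adjusted p = 0.0259, edgeR). It did not pass without d5FS replicate 1 (0.88), d0 replicate 1 (1.56) or d0 replicate 2 (1.40).

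Of 19 other cadherins, 12 were tested. From d0 to d3F 2 rose, Cdh11 and Cdh6, and none fell. Cdh11, the gene of a cadherin of mesenchymal cells, went from 1.89 and 0.666 CPM in d0 to 16.3 and 45.7 CPM in d3F and was at 3.18 and 4.24 CPM in d5FS. It was also called at d3F against the mean of d0 and d5FS (log2 difference 3.82 ± 0.50, SE, adjusted p = 0.0345, edgeR). Cdh6 went from 0.658 and 0.461 CPM in d0 to 5.32 and 21.5 CPM in d3F and to 4.82 and 11.2 CPM in d5FS. No other cadherin was called between d3F and d5FS by the main edgeR fit. Over the whole course 3 rose and 2 fell, against 12.4% and 10.4% of all tested genes. The largest changes were those of Cdh9 (-4.28 ± 1.03, SE), Cdh8 (4.25 ± 0.97) and Cdh6 (3.82 ± 0.79). Cdh9 was at 2.88 ± 2.62 CPM (SD, n = 2) in d0 and, near the limit of detection, at 0.143 ± 0.122 CPM in d5FS. Cdh8 was at 0.501 ± 0.346 CPM in d0 and 9.74 ± 6.80 CPM in d5FS. The median log2 fold change of the 12 was 1.03 from d0 to d3F. Without d3F replicate 2, the values of Cdh11 and Cdh6 from d0 to d3F were 3.66 and 3.23 and did not pass, nor did Cdh6 without d0 replicate 2 (4.34) or Cdh11 at d3F against both without d3F replicate 2, d5FS replicate 1 or d5FS replicate 2 (2.90, 3.72 and 3.93). From d0 to d5FS, Cdh6 and Cdh8 did not pass without d0 replicate 2 (3.60 and 3.70) or d5FS replicate 2 (3.08 and 3.26), and Cdh9 without d0 replicate 1, d5FS replicate 1 or d5FS replicate 2 (-2.80, -3.62 and -5.54).

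All 18 other epithelial genes were tested. None was called from d0 to d3F (median log2 fold change -0.39), 2 rose from d3F to d5FS (median 1.15), and 7 rose and 3 fell from d0 to d5FS (median 0.65). Ovol2, the gene of a factor that represses mesenchymal genes, was at 11.5 and 8.30 CPM in d0, 6.82 and 8.03 CPM in d3F, and 26.3 and 36.1 CPM in d5FS. Spint1, the gene of an epithelial protease inhibitor, was at 58.1 and 57.8, 41.4 and 38.8, and 143 and 171 CPM. Their log2 fold changes from d3F to d5FS were 2.07 ± 0.36 and 1.97 ± 0.27 (SE, adjusted p = 0.0368 and 0.0193, edgeR). Both calls were lost when any 1 of the 4 d3F and d5FS libraries was left out (1.82 to 2.28 for Ovol2 and 1.83 to 2.09 for Spint1). The largest changes from d0 to d5FS were those of Grhl1, the gene of a grainyhead factor (-3.08 ± 0.53), Dsp, the gene of desmoplakin (2.43 ± 0.74), and the tight junction gene Marveld2 (2.37 ± 0.40). Ovol1, which also fell, came next at -2.36 ± 0.72, from a low level of 1.78 ± 0.77 CPM (SD, n = 2) in d0 to 0.342 ± 0.078 CPM in d5FS. Grhl1 did not pass without d5FS replicate 1 (-2.78), and Dsp passed only without d0 replicate 1 or d5FS replicate 2 (1.47 without d5FS replicate 1). Ovol1 did not pass with any of the 6 libraries left out (-2.73 to -1.84).

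All 13 other mesenchymal genes were tested, and 2 rose between d0 and d3F, 1 between d3F and d5FS and 7 over the whole course, with none called lower. Tnc, the gene of the matrix protein tenascin C, was at 1.75 and 2.46 CPM in d0, 35.03 and 83.3 CPM in d3F, and 23.8 and 16.9 CPM in d5FS. Acta2, the gene of smooth muscle actin, was at 12.5 and 13.01, 34.9 and 42.2, and 586 and 301 CPM, so it was highest in d5FS, unlike Vim and Cdh2. Its log2 fold change from d3F to d5FS was 3.52 ± 0.39 (SE, adjusted p = 0.013, edgeR), and 3.39 with an adjusted p of 0.104 without d3F replicate 1. Its rise from d0 to d3F (1.59 ± 0.37, SE, adjusted p = 0.0495, edgeR) did not pass when any of the 4 d0 and d3F libraries was left out (1.45 to 1.72). The median of the 13 from d0 to d5FS was 2.005. Of 8 other EMT transcription factors 7 were tested and none was called in any of these comparisons by the main edgeR fit. The most abundant were the E-protein genes Tcf3, at 97.3 ± 14.1, 131 ± 24.1 and 108 ± 2.53 CPM (SD, n = 2), and Tcf12, at 33.6 ± 23.0, 74.6 ± 20.4 and 90.6 ± 15.2 CPM.

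**Figure D4:**
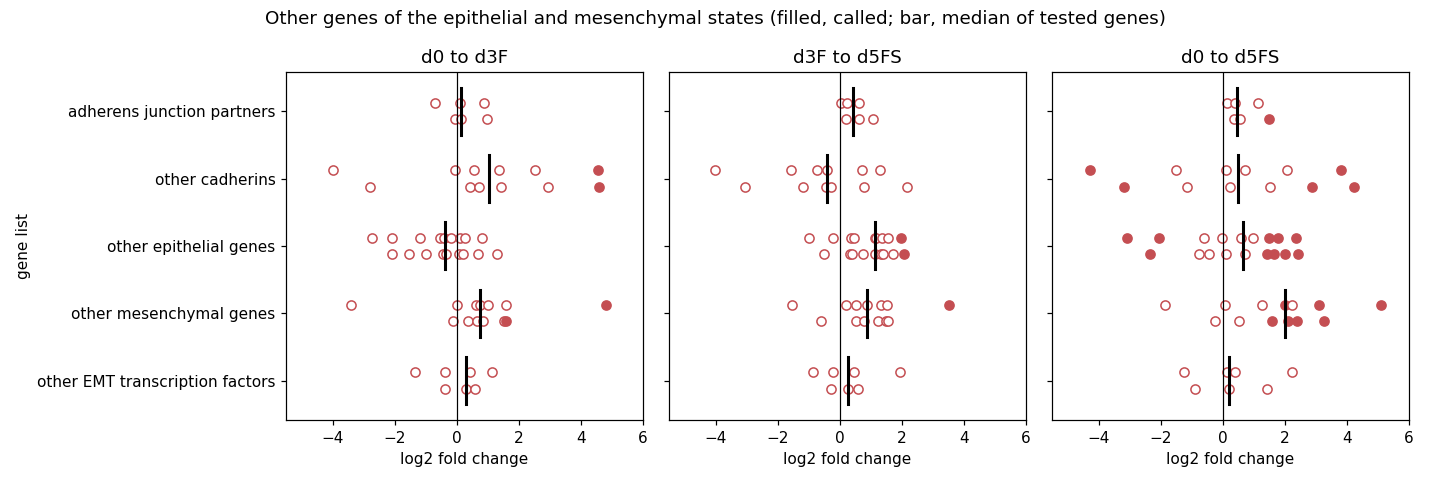
Log2 fold changes (horizontal axis) of the tested genes of 5 lists in the 3 pairwise comparisons; each circle is a gene, filled where called, and bars are list medians. The epithelial list has its median at -0.39 for the first step and at 1.15 for the second step, and the mesenchymal list has 7 filled genes from d0 to d5FS.

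Markers of other cell types that could carry Vim, Cdh2 or Twist1 RNA were read beside these values. The ESCs had been kept on feeder cells before the passages on gelatine. The d0 cells were sorted as negative for both reporters, and the d3F and d5FS cells as Foxa2-Venus positive. The 8 fibroblast and feeder cell markers summed to 10.6 and 17.4 CPM in d0, 36.2 and 84.5 CPM in d3F, and 235 and 197 CPM in d5FS. The sum was thus highest in d5FS, where Vim and Cdh2 were below their d3F level, and Col1a2 (110 and 156 CPM) was its largest part there. By mean, Col1a1, Col1a2, Col3a1, Postn and Dcn were highest in d5FS and Thy1 in d0. Pdgfrb was instead highest in both d3F samples, as Vim was, but was not called. Its log2 difference at d3F against the mean of d0 and d5FS was 1.48 ± 0.53 (SE, adjusted p = 0.306, edgeR). Of the 8, 7 were tested, and 1 was called higher from d0 to d3F and 4 from d0 to d5FS. Of all tested genes, 2.80% and 12.4% were called higher in these comparisons. Lum was at 0 or 1 count in every sample and Dcn under 0.75 CPM. The 5 mesoderm markers summed to 0.965 and 1.997 CPM in d0, 5.76 and 21.6 CPM in d3F, and 2.16 and 2.75 CPM in d5FS. This sum was highest in d3F replicate 2, the sample with the most Vim, Cdh2, Zeb1 and Zeb2 but not the most Twist1. By mean, Meox1 was its largest part in d3F (9.75 ± 9.49 CPM, SD, n = 2). Meox1 was not called from d0 to d3F (adjusted p = 0.0588, edgeR). Of the 4 mesoderm markers tested, 1 was called higher in that step, Mesp1. The part of feeder and mesoderm cells in the results was not tested.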

How the data were processed

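The RNA of d0, d3F and d5FS cells was used, with 2 replicates for each. The populations were assigned from the labels. According to the study's methods, the authors depleted ribosomal RNA, prepared libraries with a TruSeq V2 kit, which does not mark strand, and used STAR for alignment to mm10. The authors deposited 1 RSEM table for each sample. The deposited expected counts are not normalized and estimate the fragments of each gene. RSEM scaled the deposited TPM values by effective length and to a common total. The gene lengths of the tables were not used for tests, and the deposited FPKM values were not used. Versions of STAR and RSEM and the annotation release are not given in the sources used here.

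After rounding of the expected counts, filterByExpr of edgeR 4.0.16 (R 4.3.3) kept 14539 of 24054 genes, and TMM factors (0.8772 to 1.082) were computed. A single quasi-likelihood fit over all 6 samples, with the 3 populations as groups, left 3 residual degrees of freedom. A gene was called where its Benjamini-Hochberg adjusted p was below 0.05 and its log2 fold change lay beyond 1 in either direction. The SE was obtained from the F statistic as the size of the log2 fold change over the root of F. The study's own choice, DESeq2 (1.42.0 here), was run as an alternative, as were edgeR's glmTreat, other filters, size factors in place of TMM, only the groups compared, a replicate block and leaving out each sample. The script was tested on simulated data. TPM was used to order genes within samples and populations. Across samples it served only as an alternative scale for the genes with the most similar pattern. It was not used to test populations, since the 1295 genes under 300 bases took 44.33 to 62.1% of TPM in replicates 1 and 57.56 to 70.36% in replicates 2.

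The members and lists were chosen with earlier results of these data known. All 10 members are described, and the 9 tested ones have a value in each comparison. From each list at most 4 genes are named per comparison, those called with the largest change, or the 2 with the highest mean CPM where none was called. For Cdh1, Cdh2, Vim and Epcam, the 3 genes with the most similar pattern are named, among 8869 genes with a mean of at least 10 CPM. Positions were taken from GENCODE M21 (mm10), and promoter sequences are from RefSeq (GRCm38.p6). The tables list afadin under its older symbol, Mllt4. Replicates were separate samples by their labels and independent by the study's methods.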

Additional observations from a re-analysis of the deposited data

How the results depend on the processing

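The log2 fold changes of Cdh2, Vim, Zeb1, Zeb2 and Twist1 kept their direction in every alternative run, whereas calls did not. Against the 3, 0, 1 and 1 members called in the steps d0 to d3F and d3F to d5FS, over the whole course and at d3F against the mean of both, DESeq2's Wald test called 3, 1, 1 and 3. Tested against a log2 fold change of 1, DESeq2 called 2 members from d0 to d3F, 0 from d0 to d5FS and 0 at d3F against both, and edgeR's glmTreat 0 in each comparison. No filter on low counts gave 2 from d3F to d5FS, 2 from d0 to d5FS and 3 at d3F against both, at least 10 counts in every sample gave 0 at d3F against both, and only the groups compared gave 2 from d0 to d3F and 0 from d0 to d5FS. Leaving out 1 sample gave 0 to 2, 0 to 0, 0 to 1 and 0 to 2 members.

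Over all genes, the calls from d0 to d3F were 683, and 1516 with DESeq2's Wald test, 384 with DESeq2 against a log2 fold change of 1, 242 with glmTreat, 1933 with no filter, 357 with at least 10 counts and 393 with only the groups compared. From d3F to d5FS they were 224, and 1104 with the Wald test, 70 with glmTreat, 1423 with no filter, 144 with at least 10 counts and 538 with only the groups compared. From d0 to d5FS they were 3313, and 1035 with DESeq2 against a log2 fold change of 1 and 1235 with glmTreat. At d3F against both they were 60, and 578 with the Wald test, 12 with glmTreat, 896 with no filter and 12 with at least 10 counts. Leaving out 1 sample gave 95 to 969, 0 to 541, 1063 to 3082 and 0 to 229.

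The labels do not say that a replicate number marks a shared day. Samples of the same number deviated together with correlations of 0.3141, 0.3237 and 0.2779 over genes, from 2 pairs each. A replicate block gave 1320, 918, 4296 and 172 calls over all genes and changed no call of a member. Of the 18 other epithelial genes, it called 4 lower between d0 and d3F (Elf3, Grhl1, Grhl2 and Ovol1) and 8 higher between d3F and d5FS, where 0 and 2 were called without it. At d3F against both it added Spint1 as lower. In the other lists the block added Loxl2 and Tcf12 as higher and Cdh9 and Klf8 as lower from d0 to d3F. Between d3F and d5FS it added Jup as higher and Cdh11 as lower. Over the whole course it added Vcl, Cdh13, Tagln, Itgb1 and Tcf12 as higher.

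The sign of small changes was not settled. Snai1 from d0 to d3F was -0.01246 with DESeq2 size factors and -0.01692 in both DESeq2 tests. With 1 sample left out, it ranged from -0.4299 to 0.3617, Cdh1 from -0.7055 to 0.0943 and Esrp1 from -0.509 to 0.4447. Epcam ranged from -0.2004 to 1.105 from d3F to d5FS, from -0.7143 to 0.2759 from d0 to d5FS and from -1.173 to 0.03749 at d3F against both, where Esrp1 ranged from -0.8049 to 0.1453. The causes were not tested. Depth limits Snai1 and Snai2, with at most 28 and 7 counts in a sample.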

Other observations

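The genes whose log2 CPM followed a member most closely over the 6 samples were taken from 8869 candidates, and their Pearson coefficients are a description of 6 points from 3 populations that share libraries and depth. For Cdh2 they were Cd44 (0.996), the gene of a hyaluronan receptor, Parp10 (0.995) and Plekha2 (0.995). For Vim they were Fbln2 (0.993), the gene of the matrix protein fibulin 2, Frat2 (0.990) and Psme2 (0.986). For Cdh1 they were Rpl23a (0.992), Tyw5 (0.989) and Zfp748 (0.978), and for Epcam Smim15 (0.982), Exo5 (0.980) and Parg (0.976). On log2(TPM + 1) in place of log2 CPM, 1 of the 3 genes was shared for Cdh1 and 0 of 3 for Cdh2, Vim and Epcam.

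Stage markers gave the course in which these values stand. All 5 mesendoderm markers rose from d0 to d3F, where 2.80% of all tested genes did. Their summed level was 31.9 and 11.8 CPM in d0, 372 and 340 CPM in d3F, and 242 and 267 CPM in d5FS. T, the gene of brachyury, and Mixl1 fell from d3F to d5FS by log2 fold changes of -4.34 ± 0.79 and -2.62 ± 0.45 (SE, adjusted p = 0.0437 and 0.0368, edgeR). The 5 definitive endoderm markers summed to 5.61 and 5.99, 142 and 170, and 421 and 735 CPM. All 5 were called higher from d0 to d5FS, where 12.4% of all tested genes were. The 5 visceral endoderm markers summed to 27.1 and 77.9, 16.2 and 15.2, and 43.8 and 89.3 CPM, most of it Rhox5 in d0 (25.4 and 75.2 CPM). Of these 5, Ttr, Afp and Apoa4 were called higher from d0 to d5FS, with 0 to 3 counts in each d0 sample and 46 to 441 counts in each d5FS sample. The 5 neuroectoderm markers summed to 22.1 and 25.7, 23.4 and 10.3, and 1.64 and 2.23 CPM.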
